A study of Mus musculus with 77 samples.

Results

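The Zfp genes of mouse chromosomes 2, 7, 13 and 17 were followed across the peak lists of 3 histone marks in splenic B cells. They are the protein-coding genes of the RefSeq table for mm10 whose symbol is Zfp followed by digits alone. There were 187 of them among 21627 protein-coding genes on the autosomes and X, and 34324 genes in all when long non-coding genes are included. Chromosome 7 held 90, chromosome 17 held 41, chromosome 13 held 32 and chromosome 2 held 24. Members were linked when their bodies lay within 200 kb of each other. By that rule 120 members were clustered in 15 runs of at least 3 genes, 26 stood in pairs, and 41 were single. Only members were linked, so a single member may have neighbours with other symbols. The rule used symbol and position, and no peak.

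The series profiled H3K27me3, H2AK119Ub and H3K27ac by CUT&RUN, in which an antibody directs a nuclease to the marked chromatin of whole permeabilised cells, in splenic CD23+ B cells of female mice. Cells were stimulated for 24 h with 1 µM CpG, a DNA ligand of Toll-like receptor 9, or taken unstimulated at 0 h. In the mb1-cre system Xist fl/fl cells had lost Xist in vivo, in the B lineage where mb1 drives Cre, and the WT cells carried mb1-cre too. In the TAT-Cre system Xist fl/fl and WT cells of the 24 h groups received 80 µg of cell-permeable Cre protein for 45 min before CpG, while cells of the 0 h groups had received none, so their floxed Xist was intact. There were 29 H3K27me3 libraries (14 at 24 h, 15 at 0 h), 24 of H2AK119Ub and 24 of H3K27ac (12 at each time). They fell into 24 groups: 20 of 3 libraries, 3 of 4, and 1 of 5. The labels call replicates biological without saying that each is a separate mouse, so a p-value here speaks of the spread among libraries, which may be technical. The labels give no age for the mice. In the TAT-Cre system, CpG and the Cre protein came together and cannot be told apart.

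C2H2 zinc finger genes form one of the largest families of mammalian transcription factors, and many lie in tandem clusters that arose by repeated local duplication. Many clustered members encode a KRAB domain, which recruits the corepressor TRIM28 and with it H3K9me3, a mark not measured here, often at transposable elements. H3K27me3 is laid down by Polycomb repressive complex 2 and H2AK119Ub by Polycomb repressive complex 1, and both mark silenced developmental genes and the inactive X chromosome that Xist coats. H3K27ac marks active promoters and enhancers. Some members encode no KRAB protein at all, such as Zfp36, whose product binds AU-rich mRNA and speeds its decay.

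The lists held 3959 to 15040 H3K27me3 peaks at 24 h and 1950 to 18954 at 0 h. The ranges were 9273 to 37118 and 1999 to 40486 for H2AK119Ub, and 3646 to 10125 and 1329 to 10304 for H3K27ac. Peak lists carry no read counts, so sequencing depth is unknown, and a gene without a peak was not shown to lack the mark. Zfp965, Zfp966, Zfp967, Zfp968, Zfp970 and Zfp973 of chromosome 2 were among the members without a peak of any mark in any library. How well reads could be placed in closely similar copies of a gene is unknown. Its part in the shares of the classes was not tested. All 8 B cell markers examined, Cd79a among them, had an H3K27ac peak in each of the 24 libraries, while each library had a peak at 0 to 2 of 6 T cell markers and 0 to 1 of 5 myeloid, 3 NK and 4 erythroid markers. The defining genes Cd3e, Cd4, Cd8a, Lyz2, Csf1r and Ncr1 had none, while the NK marker Klrb1c had one in 11 of 24 libraries, the T cell markers Cd3g and Cd3d in 5 each, and Cd5 in 2. The part of other cells in the results was not tested. Replicate 2 of the H3K27ac TAT-Cre Xist fl/fl 0 h group stood apart, with 10304 peaks against 1501 in each of the other two, and a peak at 33.7% of the members against 3.74% and 4.28%.

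Clustered members carried H3K27ac far less often than single members. A member had a peak if at least 1 base of one fell in the gene or within 2 kb of its ends. At 24 h a mean of 16.8% ± 9.41 of the clustered and 42.1% ± 10.7 of the single members had an H3K27ac peak, and at 0 h the shares were 6.81% ± 6.83 and 28.5% ± 11.1 (SD over 12 libraries each). Clustered members stood below single ones in 24 of 24 libraries. Without the list that stood apart, the shares at 0 h were 5.15% ± 3.91 and 25.7% ± 6.01 (SD, n = 11). The single members also stood above protein-coding genes as a whole (26.1% ± 7.59 at 24 h and 13.7% ± 7.09 at 0 h), and the clustered members stood below them. Genes of 1 library are not replicates, so the differences between classes are described without a test.

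For H3K27me3 the gap between classes was smaller and had the same direction. Clustered members had a peak in 16.0% ± 7.91 of cases and single members in 23.7% ± 9.87 at 24 h (SD, n = 14), and the values at 0 h were 14.5% ± 5.72 and 19.5% ± 6.52 (SD, n = 15). The clustered share was the lower in 29 of 29 libraries. For H2AK119Ub the gap had that direction at 24 h, and the lists at 0 h varied in direction. At 24 h 36.3% ± 12.5 of clustered and 48.6% ± 14.5 of single members had a peak, and the clustered share was lower in 12 of 12 libraries. At 0 h the shares were 29.2% ± 20.3 and 26.2% ± 16.2, and the clustered share was lower in 4 of 12. The difference in a library at 0 h, clustered minus single, ran from -3.68 to 16.2 percentage points, with a median of 1.33. Set against all protein-coding genes, the 187 members had a lower mean covered share, the percent of gene body and flanks lying under peaks, in each library of each mark. This was not particular to them. At 24 h the means for H3K27me3, H2AK119Ub and H3K27ac were 3.77%, 8.98% and 7.19% in members. They were 5.61%, 11.2% and 7.38% in the 180 Zfp genes of other chromosomes, and 9.18%, 14.5% and 9.38% in protein-coding genes. Clustered members were shorter than single ones (median 15.1 kb against 20.6 kb, and 17.3 kb for protein-coding genes), and a longer window meets a peak more often; the part of length in these shares was not tested. Of the gene starts, 14.3% ± 8.79 of the clustered and 32.9% ± 13.3 of the single ones lay under an H3K27ac peak at 24 h, and 5.83% ± 5.74 and 18.7% ± 11.1 at 0 h. For H3K27me3 the start was under a peak in 5.97% ± 3.52 of clustered and 8.88% ± 3.58 of single members at 24 h, and for H2AK119Ub in 27.7% ± 9.36 and 31.3% ± 10.7.

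**Figure D1:**
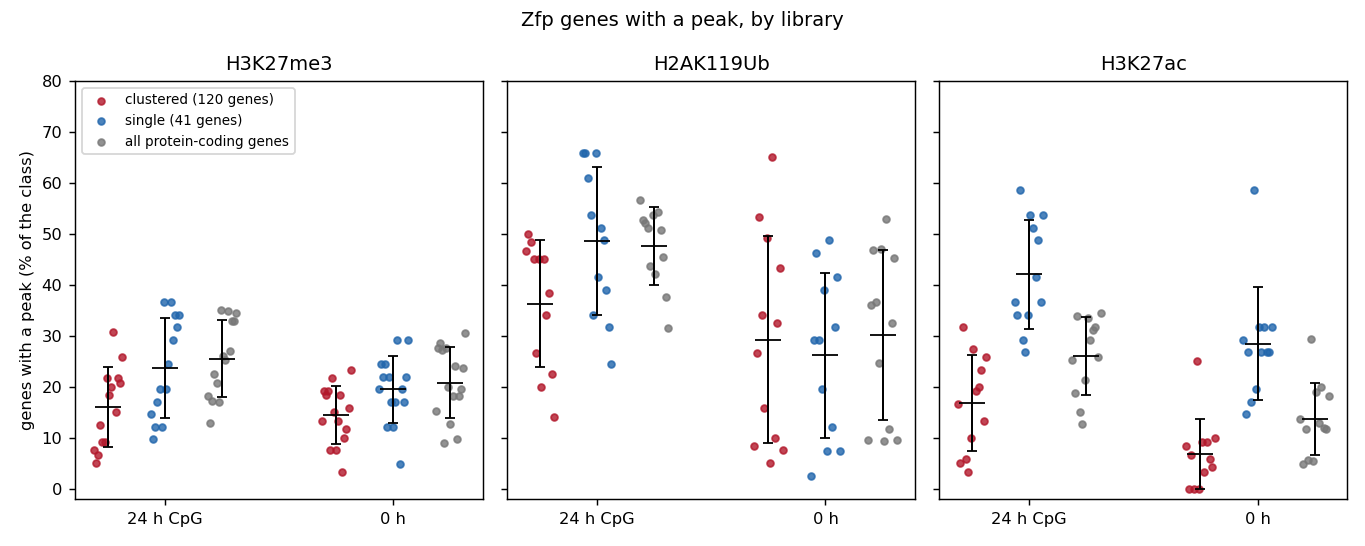
Percent of clustered Zfp genes (red), single Zfp genes (blue) and all protein-coding genes (grey) with a peak, 1 point per library, for 24 h CpG on the left and 0 h on the right of each panel; bars are the mean and SD. In the H3K27ac panel the clustered genes average 16.8% at 24 h and 6.81% at 0 h, below the single genes at 42.1% and 28.5%.

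The Polycomb marks were arranged on one side of the Zfp starts. Averaged over the 29 H3K27me3 libraries, 15.0% ± 6.49 of the positions 5 kb upstream of clustered starts lay under a peak, against 2.13% ± 0.816 of the positions 5 kb downstream, inside the gene or beyond it. Single members had 18.1% ± 7.08 upstream and 4.47% ± 1.49 downstream. Protein-coding genes as a whole had a flatter profile, 13.2% ± 5.35 upstream and 10.2% ± 3.72 downstream. The upstream position was the higher in 29 of 29 libraries for clustered and in 28 of 29 for single members, and also in 29 of 29 for protein-coding genes. H2AK119Ub had its maximum at or close to the start and the same asymmetry beyond it, with 12.9% ± 5.93 of clustered genes under a peak 5 kb upstream and 3.52% ± 1.48 downstream, against 14.7% ± 5.58 and 10.3% ± 3.77 of protein-coding genes. H3K27ac had no such tilt in clustered genes, with 1.44% ± 1.26 upstream and 1.74% ± 1.44 downstream. These profiles cover the 110 clustered and 37 single members whose start is in the RefSeq promoter table. Neighbours in a cluster share the sequence between them, so the genes are not independent.

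**Figure D2:**
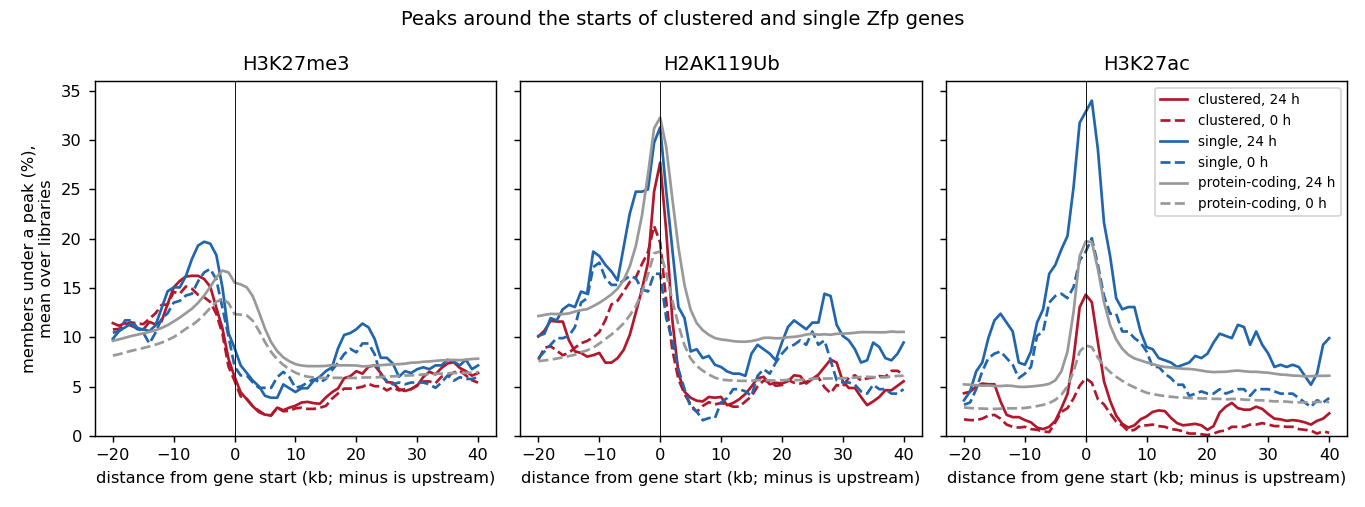
Percent of clustered (red), single (blue) and protein-coding (grey) gene starts with a peak at each distance from the start, as the mean over libraries at 24 h (solid) and 0 h (dashed). In the H3K27me3 panel the Zfp lines fall between the upstream and the downstream side of the start, where clustered genes have 15.0% at 5 kb upstream and 2.13% at 5 kb downstream; in the H3K27ac panel all lines peak at or next to the start.

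The promoters of 5 members are printed because their start carries a contrasting set of marks: H3K27ac in each library (Zfp36), H2AK119Ub that rose after CpG (Zfp526, Zfp335), H3K27me3 in each library (Zfp57), and H2AK119Ub that fell after CpG (Zfp442). Each is the RefSeq window of 300 bases of GRCm38.p6 (mm10), 250 upstream of the start and 50 downstream, read 5′ to 3′ on the gene's strand, with every CG in capitals. Zfp36 is at chr7:28379179-28379478 on the minus strand and Zfp526 at chr7:25221175-25221474 on the plus strand. Zfp335 is at chr2:164911701-164912000 (minus), Zfp57 at chr17:37000913-37001212 (plus) and Zfp442 at chr2:150451452-150451751 (minus).
Zfp36: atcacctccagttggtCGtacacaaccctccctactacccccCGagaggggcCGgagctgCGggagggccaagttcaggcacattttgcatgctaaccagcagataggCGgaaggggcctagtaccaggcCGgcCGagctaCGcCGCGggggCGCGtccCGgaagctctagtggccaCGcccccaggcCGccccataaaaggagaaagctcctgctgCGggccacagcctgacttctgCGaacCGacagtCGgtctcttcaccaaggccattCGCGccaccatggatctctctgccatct
Zfp526: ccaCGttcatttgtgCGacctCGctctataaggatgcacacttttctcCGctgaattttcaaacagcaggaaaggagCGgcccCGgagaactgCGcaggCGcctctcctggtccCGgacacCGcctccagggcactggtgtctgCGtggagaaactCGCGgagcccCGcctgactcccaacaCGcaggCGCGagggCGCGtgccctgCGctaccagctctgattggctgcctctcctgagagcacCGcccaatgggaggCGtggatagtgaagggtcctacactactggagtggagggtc
Zfp335: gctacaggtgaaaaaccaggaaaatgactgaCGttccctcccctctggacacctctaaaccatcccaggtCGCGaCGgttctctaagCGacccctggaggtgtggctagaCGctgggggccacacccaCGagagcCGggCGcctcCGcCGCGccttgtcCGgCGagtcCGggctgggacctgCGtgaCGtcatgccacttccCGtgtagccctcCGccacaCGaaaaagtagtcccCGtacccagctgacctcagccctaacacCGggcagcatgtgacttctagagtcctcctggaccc
Zfp57: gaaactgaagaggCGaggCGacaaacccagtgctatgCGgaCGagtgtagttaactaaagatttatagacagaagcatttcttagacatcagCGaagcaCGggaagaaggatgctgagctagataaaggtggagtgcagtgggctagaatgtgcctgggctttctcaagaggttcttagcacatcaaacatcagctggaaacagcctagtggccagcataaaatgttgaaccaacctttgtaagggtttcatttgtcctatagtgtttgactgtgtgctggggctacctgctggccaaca
Zfp442: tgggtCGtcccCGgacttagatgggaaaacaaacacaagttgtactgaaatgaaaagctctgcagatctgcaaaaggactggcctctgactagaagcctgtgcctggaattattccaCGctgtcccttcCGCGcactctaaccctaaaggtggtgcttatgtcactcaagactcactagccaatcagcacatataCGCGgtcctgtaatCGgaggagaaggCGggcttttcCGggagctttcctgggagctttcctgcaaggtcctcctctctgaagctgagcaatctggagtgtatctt
Zfp36, Zfp526 and Zfp335 had 21, 22 and 22 CG dinucleotides in their windows, against 10 in that of Zfp442 and 6 in that of Zfp57. The Zfp36 window lay wholly under an H3K27ac peak in 12 of 12 libraries at each time. The Zfp57 window lay wholly under an H3K27me3 peak in 14 of 14 libraries at 24 h and 15 of 15 at 0 h, and met no H3K27ac peak. The Zfp335 window lay under an H3K27ac peak in 12 of 12 libraries at 24 h and 9 of 12 at 0 h. At Zfp526 the window lay under an H3K27ac peak in 12 of 12 libraries at 24 h and 4 of 12 at 0 h, and under an H2AK119Ub peak in 11 and 2.

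Across the 169 members with a promoter in the table, CG content differed between the classes. The median window held 11 CG in all members, 10 in clustered, 12.5 in paired and 17 in single ones, and 14 in 17273 protein-coding genes. Members with an H3K27ac peak in at least 50% of the libraries had a median of 20, against 9 for those with none. The same split gave 12 against 12 for H3K27me3 and 12.5 against 6 for H2AK119Ub. The motif CCGGAAG, bound by ETS family factors and counted on both strands, was in 42 of the 169 windows (24.9%) and in 12.1% of the protein-coding windows. Of the 136 windows of Zfp genes on other chromosomes, 19.9% held it. It was in 45.5% of the paired, 24.3% of the single and 20.9% of the clustered windows, and in 11 of the 21 windows (52.4%) of members that never had an H2AK119Ub peak. Zfp965, Zfp966, Zfp967, Zfp968 and Zfp973 of chromosome 2 are among those 11. Their windows are alike in content, with 5 CG and 48.3% to 49% GC each, and all but Zfp966 count as paired. Such neighbours are not independent, and they weigh on both shares. The motif holds a CG itself, and a match is a string of letters, not a shown binding site.

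There were 5 members with an H3K27ac peak in each of the 24 libraries, all of them single genes: Zfp36, Zfp217, Zfp592, Zfp318 and Zfp831. Zfp36 was covered by H3K27ac over 100% of its window in each library at 24 h, and over a lowest, median and highest share of 57.6%, 100% and 100% at 0 h. Zfp318, which is required for the alternative RNA processing that lets mature B cells express IgD, had a covered share of 32.5% ± 15.1 at 24 h and 32.2% ± 9.44 at 0 h (SD, n = 12 each). Zfp217, a transcriptional corepressor amplified in human breast cancer as ZNF217, had 54.6% ± 16.0 and 42.9% ± 18.0. None of the 5 had an H3K27me3 peak in any library. Zfp143, single as well and a promoter-binding activator, had H3K27ac in 12 of 12 libraries at 24 h and 9 of 12 at 0 h, and no peak of either Polycomb mark. In all, 99 of the 187 members had no H3K27ac peak in any library (52.9%, against 57.3% of protein-coding genes), and 26 had one in at least 50% of libraries (13.9% against 18.8%): 31.7% of the single members and 7.5% of the clustered ones.

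At the other end stood members with H3K27me3 in most libraries. Zfp57, which protects the DNA methylation of imprinted loci in the early embryo, and Zfp580 were the 2 members with an H3K27me3 peak in all 29 libraries. Zfp57 (single, chr17:37001163-37010729) had 71.4% ± 20.6 of its window covered at 24 h and 83.6% ± 11.4 at 0 h (SD, n = 14 and 15). In the TAT-Cre system its share was 48.0%, 47.1% and 50.5% in Xist fl/fl and 50.7%, 52.3% and 69.0% in WT libraries at 24 h, against 71.5%, 71.6% and 92.7% in Xist fl/fl and 80.3%, 63.7% and 87.0% in WT libraries at 0 h. There the times were apart in Xist fl/fl libraries and overlapped in WT. The fitted change of that system in log2(percent + 1) did not pass and depended on the scaling: it was 0.06 ± 0.40 (SE) with each library centred on its mean (limma adjusted p = 0.955) and -0.55 ± 0.13 without (adjusted p = 0.0728). The H3K27me3 lists of that system covered a mean of 52.7 Mb at 24 h and 87.7 Mb at 0 h. Over both systems the centred change was -0.72 ± 0.26 (adjusted p = 0.178). Zfp57 had H2AK119Ub in 12 of 12 libraries at 24 h and 8 of 12 at 0 h. Zfp580 (clustered, chr7:5038519-5053723) had 43.9% ± 13.6 and 42.6% ± 14.7 of H3K27me3 cover, and 50.0% ± 12.6 and 59.8% ± 19.3 of H2AK119Ub cover, with a peak of both marks in every library. Zfp811 and Zfp763 of the chromosome 17 cluster and the single gene Zfp941 of chromosome 7 followed, each with H3K27me3 in 28 of 29 libraries. Zfp366, which encodes the dendritic cell factor DC-SCRIPT, carried H3K27me3 in 12 of 14 libraries at 24 h and 11 of 15 at 0 h and no H3K27ac peak. H3K27me3 was in none of the libraries at 104 members (55.6%, against 56.9% of protein-coding genes), and H2AK119Ub in none at 23 (12.3% against 24.0%).

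The marks were also read together by gene. Counting a mark as present when at least 50% of its libraries at that time had a peak, 20 members carried H3K27me3 with H2AK119Ub at 24 h and 17 at 0 h (10.7% and 9.09%, against 18.9% and 14.3% of protein-coding genes). No member carried H3K27me3 with H3K27ac alone at either time, nor did more than 0.148% of protein-coding genes. All 3 marks were present by this rule at Zfp541 and Zfp574 at 24 h and at Zfp541 at 0 h (1.07% and 0.535%, against 2.65% and 0.929%). The rule takes a peak anywhere in the window, mark by mark in separate libraries, so the marks need not overlap. H2AK119Ub with H3K27ac and no H3K27me3 was found at 21 members at 24 h (8 clustered, 3 paired, 10 single), among them Zfp36, Zfp217, Zfp318, Zfp335 and Zfp526, and at 3 members at 0 h, Zfp120, Zfp52 and Zfp53 (11.2% and 1.6%, against 14.2% and 3.29%). None of the marks was present by this rule at 89 members at 24 h and 113 at 0 h (47.6% and 60.4%, against 34.7% and 54.0%). Lists of H2AK119Ub and H3K27ac were longer at 24 h by their medians, 25055 against 17698.5 peaks and 7827 against 3163, and the part of list length in these counts was not tested.

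The 15 clusters differed from each other in the marks they carried. The chromosome 7 cluster from Zfp553 to Zfp629 (8 genes, chr7:127233061-127615785) had H2AK119Ub at 85.4% ± 12.9 of its members at 24 h and 31.2% ± 31.3 at 0 h, with H3K27me3 at 2.68% ± 5.32 and 0.833% ± 3.23. The chromosome 17 cluster from Zfp871 to Zfp563 (8 genes) had H3K27me3 at 50.0% ± 21.4 of its members at 24 h and 55.0% ± 12.3 at 0 h. The largest cluster, Zfp712 to Zfp273 on chromosome 13 (19 genes, chr13:67038594-67827000), was sparse in all 3 marks, with H3K27me3 at 10.2% ± 9.11 and 10.9% ± 5.79, H2AK119Ub at 7.89% ± 6.54 and 14.9% ± 15.0, and H3K27ac at 3.07% ± 6.13 and 2.19% ± 7.60. H3K27ac was listed at none of the members of the Zfp954 to Zfp772 and Zfp658 to Zfp819 clusters of chromosome 7 in any library. In the 15-gene cluster from Zfp84 to Zfp146, which holds Zfp568, a repressor of a placental Igf2 transcript, H3K27ac was at 23.3% ± 15.2 of the members at 24 h and at none in any library at 0 h. Windows overlapped in 20 of 183 neighbouring pairs of members, and between 5.46% and 10.1% of the peaks at members touched more than 1 of them, so neighbours can share a peak.

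**Figure D3:**
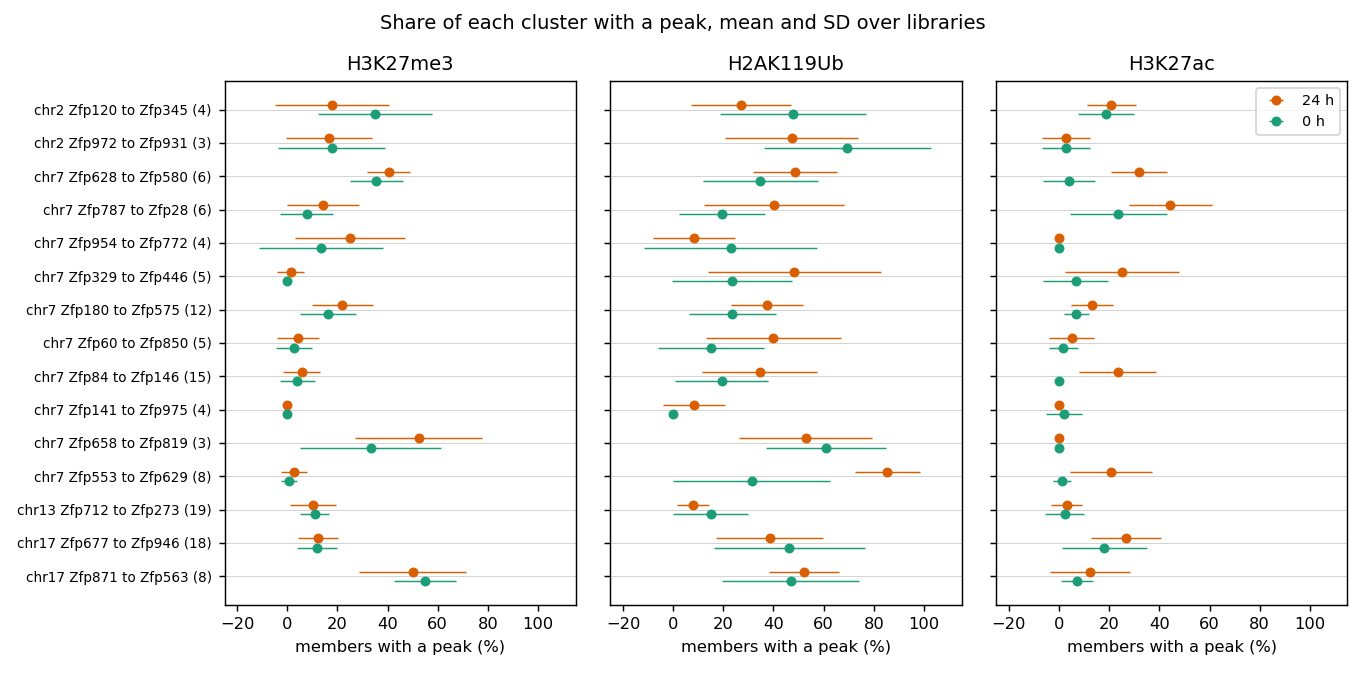
Percent of the members of each of the 15 clusters with a peak, mean and SD over libraries at 24 h (orange) and 0 h (green); clusters are named by their first and last gene, with the number of genes in brackets. The Zfp553 to Zfp629 cluster stands highest for H2AK119Ub at 24 h (85.4%), and the Zfp712 to Zfp273 cluster stays at or below 14.9% in each panel.

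Loss of Xist was compared in the mb1-cre libraries at 0 h and 24 h and the TAT-Cre libraries at 24 h, Xist fl/fl against WT. No member passed the test for any mark, which does not show that the genotypes were alike. In the limma fit of the covered share, log2(percent + 1), with Benjamini-Hochberg adjustment over all genes, 0 of 64 members tested were called for H3K27me3, 0 of 142 for H2AK119Ub and 0 of 69 for H3K27ac. Over all genes 0.0515%, 0.135% and 0% were called, so calls were rare in the whole table. At an unadjusted p under 0.05, 1 member was higher and 1 lower for H3K27me3, 1 and 5 for H2AK119Ub, and 3 and 2 for H3K27ac. Over all genes 601 of 11661, 1079 of 20691 and 542 of 9707 were under that p in either direction. The exact test of peak presence called 0 of 50, 126 and 49 members tested, with 0% of all genes called in each mark and no member under an unadjusted p of 0.05. Before Cre, the TAT-Cre 0 h libraries also had no member called in any mark by the limma fit, where 0%, 0% and 0.381% of all genes were called. At an unadjusted p under 0.05 the higher and lower members there were 1 and 1 for H3K27me3, 2 and 2 for H2AK119Ub, and 0 and 3 for H3K27ac. All genes under that p there were 358 of 11661, 653 of 20691 and 579 of 9707.

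The smallest genotype p-value of a member was that of H3K27me3 at Zfp658, a gene of a 3-member cluster at chr7:43562202-43576142. In the TAT-Cre system at 24 h its covered share was 35.8%, 32.8% and 34.1% in Xist fl/fl libraries and 0% in each of the 3 WT libraries. At 24 h of the mb1-cre system it was 47.3%, 40.8%, 38.2% and 33.5% in Xist fl/fl libraries and 34.1%, 34.2%, 37.5% and 35.4% in WT. At 0 h of that system it was 0% in 4 Xist fl/fl libraries, 38.2% in the 5th, whose treatment label says stimulated while its title says naive, and 0% in the 4 WT libraries. The genotypes were therefore apart in the TAT-Cre cells and overlapped in the mb1-cre cells. The H3K27me3 lists of the TAT-Cre 24 h groups were also apart in length, with 10119, 7194 and 6398 peaks in Xist fl/fl and 5764, 3959 and 5010 in WT. The part of list length in this contrast was not tested. The pooled difference was 1.86 ± 0.50 (SE) on the log2 scale and did not pass (limma adjusted p = 0.369). Before TAT-Cre, the same gene had 23.6%, 0% and 19.4% in Xist fl/fl and 0%, 31.9% and 25.4% in WT libraries. For H2AK119Ub the smallest p belonged to Zfp324, with a difference of -2.05 ± 0.75 (adjusted p = 0.668), and for H3K27ac to Zfp771, at -1.53 ± 0.61 (adjusted p = 0.730). At Zfp771 the mb1-cre 24 h libraries had 0%, 0% and 23.5% in Xist fl/fl and 78.6%, 45.9% and 23.3% in WT.

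Stimulation with CpG was followed by more H2AK119Ub at 13 Zfp genes and less at 1, and by more H3K27ac at 12 and less at 1. Lists at 24 h covered more of the genome by their means, except those of H3K27me3 in the TAT-Cre system, so the covered share was tested with each library centred on its mean and again without centring, and a member was called when both gave an adjusted p under 0.05 and the same sign. Without centring the median gene shifted by 0.31 for H3K27me3, 1.11 for H2AK119Ub and 1.41 for H3K27ac (log2); the median of the members tested shifted by 0.00, 0.38 and 1.33. With centring the medians were -0.11, -0.11 and -0.14 for all genes and -0.42, -0.84 and -0.22 for the members. For H2AK119Ub 13 of the 142 members tested rose and 1 fell, where 14.8% of all genes rose and 1.84% fell. For H3K27ac 12 of 69 rose and 1 fell, where 16.9% rose and 1.31% fell. For H3K27me3 no member of 64 was called, where 1.11% of all genes were. At an unadjusted p under 0.05 in the centred fit 4 members were higher and 12 lower, against 1746 of 11661 genes in either direction. The shares of members called were thus near or below those of all genes. A gene enters the fit when covered in at least 3 libraries, which 1 time point can supply, so the counts describe the members and support no statement about them as a list. The direction of most calls depended on the scaling: the centred fit called 13 members higher and 44 lower for H2AK119Ub, where 14.8% and 19.6% of all genes were, and 12 and 15 for H3K27ac, where 16.9% and 22.5% were. The uncentred fit called 28 and 1 (33.9% and 1.84% of all genes), and 31 and 1 (52.5% and 1.31%).

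**Figure D4:**
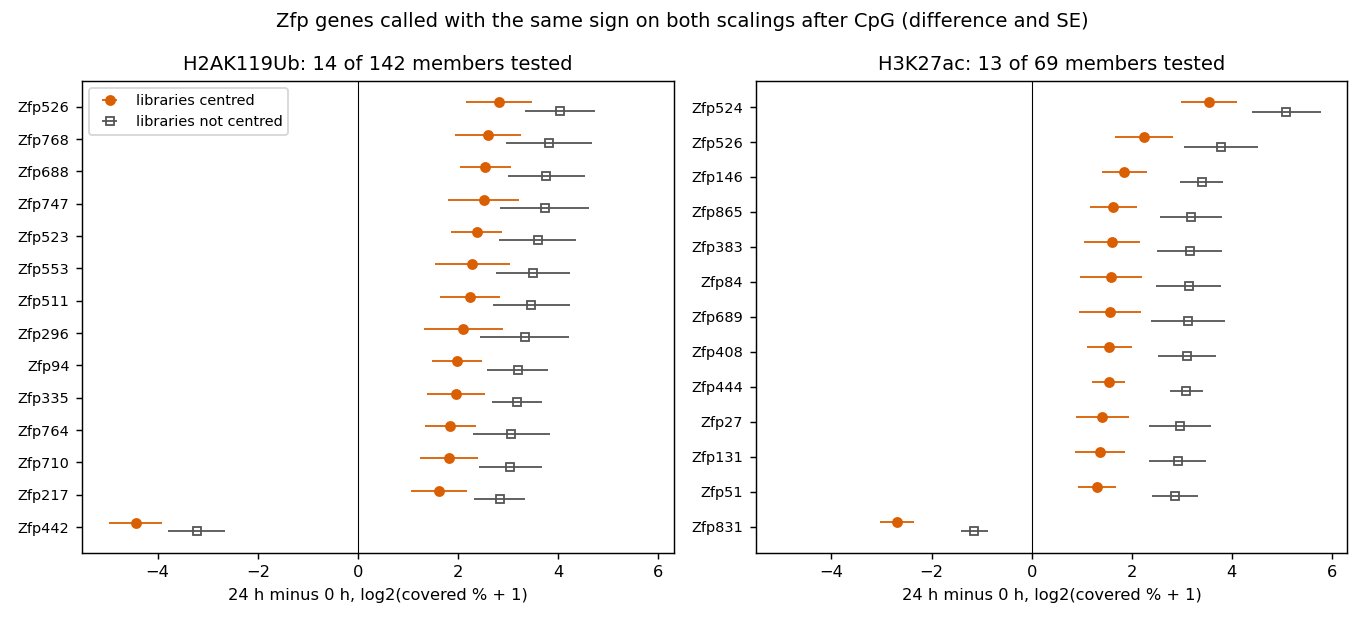
Difference of covered share between 24 h and 0 h, log2(percent + 1), with its SE, for the Zfp genes called with the same sign when libraries were centred (orange circles) and when they were not (grey squares). H2AK119Ub has 13 genes to the right of 0 and Zfp442 to the left; H3K27ac has 12 to the right and Zfp831 to the left.

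The H2AK119Ub gains fell in part on 1 cluster. Of the 13 members that rose, Zfp553, Zfp768, Zfp747, Zfp764 and Zfp688 lie in the Zfp553 to Zfp629 cluster. Only Zfp553 and Zfp688 of these were still called without the short 0 h lists described below. Zfp688 had a covered share of 35.4%, 52.8% and 78.8% (lowest, median, highest of 12) at 24 h and 0%, 0% and 48.0% at 0 h. Its difference was 2.54 ± 0.51 in the centred fit (limma adjusted p = 0.000891), and it had no H3K27ac peak in any library. The windows of Zfp747 and Zfp764 overlap, so the pair is not independent. Zfp526 had 0%, 36.9% and 52.1% at 24 h and 0%, 0% and 31.8% at 0 h, a difference of 2.82 ± 0.66 (adjusted p = 0.00302). Zfp335, a regulator of thymocyte maturation and blood cell development, had H2AK119Ub in 10 of 12 libraries at 24 h, with 0%, 12.7% and 26.1% covered, and in 0 of 12 at 0 h. Its difference was 1.96 ± 0.58 (adjusted p = 0.0132).

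At Zfp335 and at Zfp217 the gain of H2AK119Ub fell in a gene window that also held H3K27ac in other libraries. Overlap of the 2 marks was not tested. Zfp335 had H3K27ac in 12 of 12 libraries at 24 h and 9 of 12 at 0 h. Zfp217 had H2AK119Ub in 11 of 12 and 1 of 12 libraries, with an H3K27ac peak in all 24. Zfp523 (2.37 ± 0.51) and Zfp94 (1.97 ± 0.50) likewise gained H2AK119Ub in 12 of 12 libraries, against 5 and 4 of 12 at 0 h, with H3K27ac in 12 and 10 of 12 at 24 h and 10 and 9 of 12 at 0 h. Leaving out 1 library at a time, 11 of the 13 were called in all 24 fits; Zfp217 was called in 17 and Zfp296 in 9. Of the 0 h H2AK119Ub lists, 4 stood apart: 2 of mb1-cre WT, 1 of mb1-cre Xist fl/fl and 1 of TAT-Cre WT were short (1999 to 2791 peaks) with wide peaks (median width 13.1 to 16.0 kb). Without those 4 lists, 9 members rose and 9 fell, where 8.8% and 4.28% of all genes did. Zfp217, Zfp335, Zfp523, Zfp526, Zfp553, Zfp688, Zfp710 and Zfp94 were called as higher with and without them, and Zfp366 was added.

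Zfp442, a clustered gene at chr2:150402480-150451501, was the member whose H2AK119Ub fell. Its covered share was 0%, 6.52% and 12.1% (lowest, median, highest) at 24 h and 4.15%, 43.0% and 73.9% at 0 h. The ranges overlapped from 4.15% to 12.1%, and the median at 24 h lay within the range at 0 h. The difference was -4.44 ± 0.53 with centring (adjusted p = 4.75e-06) and -3.22 ± 0.57 without (adjusted p = 0.000317), and the call held in all 24 fits that leave out 1 library. H3K27me3 was present there in 7 of 14 libraries at 24 h and 11 of 15 at 0 h, and H3K27ac in none. The count of members with less H2AK119Ub ranged from 1 to 6 when 1 library was left out. The highest, 6, was reached without TAT-Cre WT 0 h replicate 1, which is 1 of the 4 short lists. These counts are of members alone and support no statement about them as a list.

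H3K27ac rose after CpG at 12 members, 9 of them clustered, 1 paired and 2 single, where 120 of all 187 members are clustered. Of these, Zfp84, Zfp27, Zfp383 and Zfp146 lie in the Zfp84 to Zfp146 cluster. Zfp524, a clustered gene at chr7:5015216-5018493, had 41.5%, 74.4% and 100% of its window covered at 24 h and 0%, 0% and 62.3% at 0 h. It had a peak in 12 of 12 libraries at 24 h and 2 of 12 at 0 h, and the difference was 3.54 ± 0.56 (adjusted p = 7.43e-05). The window of Zfp865, which rose by 1.63 ± 0.47, overlaps it, as do those of Zfp27 and Zfp383 each other, so these pairs are not independent. Zfp526 had 39.7%, 44.2% and 56.9% at 24 h and 0%, 0% and 43.8% at 0 h, a difference of 2.24 ± 0.58 (adjusted p = 0.00392), and was the only member called as higher in both H2AK119Ub and H3K27ac. Zfp146 had H3K27ac in 8 of 12 libraries at 24 h and 0 of 12 at 0 h (1.85 ± 0.44). Zfp524, Zfp526, Zfp146, Zfp865, Zfp444, Zfp408 and Zfp51 were called in all 24 fits that leave out 1 library, and Zfp383, Zfp27, Zfp131, Zfp84 and Zfp689 in 20, 11, 10, 7 and 6. Without the list that stood apart 8 members rose and 1 fell. That count is of members alone and supports no statement about them as a list.

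Zfp831 was the member whose H3K27ac fell. Its window, chr2:174598682-174710832 with 2 kb on either side, had 3.97%, 6.92% and 11.8% covered at 24 h and 9.70%, 21.2% and 25.4% at 0 h. It kept a peak in all 24 libraries while the covered part shrank, with a difference of -2.70 ± 0.34 with centring (adjusted p = 6.46e-06) and -1.15 ± 0.27 without (adjusted p = 0.0018). Zfp36, covered over 100% at both medians, differed by -1.48 ± 0.28 with centring and by 0.07 ± 0.07 without, and was not called. For H3K27me3 the smallest p-values of CpG were those of Zfp658 (1.67 ± 0.44, adjusted p = 0.0532) and Zfp811 (-1.38 ± 0.41, adjusted p = 0.0858).

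The effect of CpG was also fitted within each system and compared between them by the interaction term of the limma fit. Within the mb1-cre system, H3K27me3 rose with and without centring at 3 of 64 members, Zfp658, Zfp418 and Zfp64, where 11.2% of all genes rose. They are named because few were called, after their values were seen. Zfp64, whose human counterpart is known as an activator of the MLL gene in leukaemia, had H3K27me3 in 8 of 8 mb1-cre libraries at 24 h and 0 of 9 at 0 h, and in 2 of 6 and 4 of 6 TAT-Cre libraries. Its difference within mb1-cre was 1.93 ± 0.53 (SE) with centring, adjusted p = 0.00689. The majority turned with the scaling: the centred fit called 3 members higher and 22 lower (11.2% and 23.4% of all genes), and the uncentred fit 13 and 0 (30.4% and 0.18%). The effect of CpG was lower in TAT-Cre than in mb1-cre cells at Zfp658 and Zfp418 for H3K27me3, 2 of 64 members against 7.55% of all genes. These are the calls that held in both scalings; the centred fit called 9 members higher and 2 lower (18.7% and 7.55% of all genes), and the uncentred fit 0 and 13 (0.0257% and 24.9%). For H3K27ac it was lower in both scalings at 4 of 69 members, Zfp51, Zfp408, Zfp444 and Zfp146, against 4% of all genes. There the centred fit called 3 higher and 6 lower (5.25% and 4.92%), and the uncentred fit 0 and 4 (0.268% and 5.92%). Without the H3K27ac list that stood apart, the same 4 members were lower in both scalings, and Zfp710, Zfp668 and Zfp646 were higher, of 67 tested, where 430 of 9512 genes were higher and 465 lower. The windows of Zfp668 and Zfp646 overlap. For H2AK119Ub no member of 142 and 0% of all genes were called in both scalings. At an unadjusted p under 0.05 with centring 10 members were higher and 1 lower, against 1098 of 20691 genes in either direction.

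**Figure D5:**
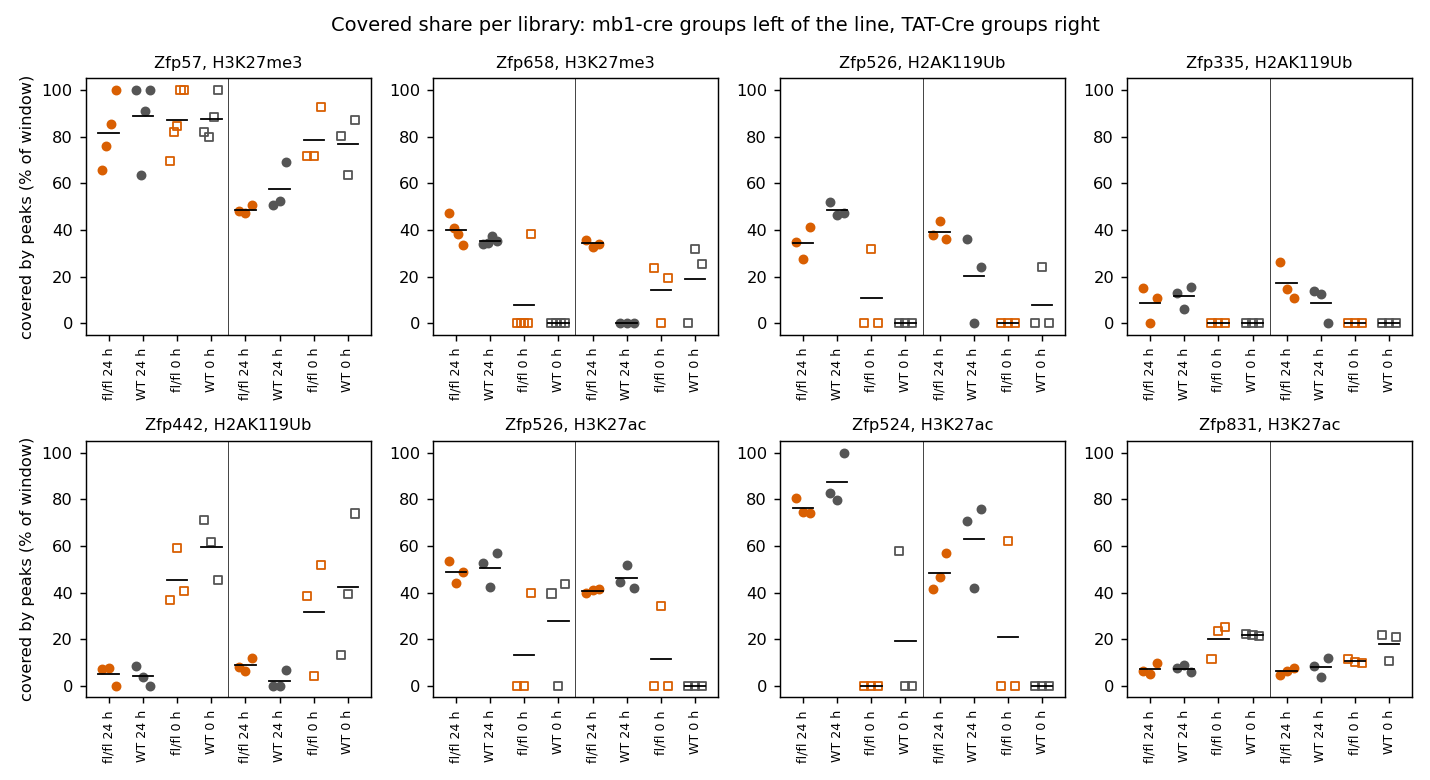
Covered share (percent of gene body and 2 kb flanks under peaks) of 7 Zfp genes, 1 point per library, Xist fl/fl in orange and WT in grey, 24 h as filled circles and 0 h as open squares; lines are group means. Zfp442 has at most 12.1% at 24 h and up to 73.9% at 0 h, while Zfp526 and Zfp524 have a median of 0% at 0 h in each mark shown.

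Peak presence was also compared between times in lists of equal length, each cut by total signal to the size of the mark's shortest one (1950, 1999 and 1329 peaks), where a gene counts if it ranks among the strongest peaks. Of 21 members that could be tested for H2AK119Ub, 8 were lower at 24 h and 0 higher by the exact test with Benjamini-Hochberg adjustment, where 11.5% of all genes were lower and 17.4% higher. They were Zfp763, Zfp442, Zfp101, Zfp658, Zfp971, Zfp959, Zfp946 and Zfp367. Zfp763 was among the strongest peaks in 0 of 12 libraries at 24 h and 12 of 12 at 0 h, although it had a peak in all 24 deposited lists. Zfp831 gave the same split for H3K27ac and was the 1 member called of 7 (13.5% of all genes lower, 14.8% higher). Zfp811 was the 1 called of 24 for H3K27me3, with 0 of 14 libraries at 24 h and 14 of 15 at 0 h (1.28% of all genes called). In the deposited lists the direction turned: 11 of 136 members were higher and 0 lower for H2AK119Ub (11.1% of all genes higher, 0.16% lower), 12 of 61 higher and 0 lower for H3K27ac (30.7% and 0.312%), and 0 of 55 were called for H3K27me3, where 0% of all genes were.

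The partners through which KRAB zinc finger proteins act were read as a list of their own, among them Trim28, Setdb1, the HUSH complex and heterochromatin proteins. No partner was called for genotype in any mark. After CpG, 2 of 21 tested rose in H2AK119Ub, Dnmt3a and Uhrf1, a DNA methyltransferase and the protein that guides maintenance methylation, and 0 fell, with both scalings, where 14.8% of all genes rose. The centred fit called 2 higher and 2 lower, and the uncentred fit 7 and 0. In H3K27ac 3 of 21 rose, Trim28, Daxx and Pphln1, and 0 fell, where 16.9% of all genes rose. The centred fit called 3 and 0, and the uncentred fit 11 and 0. None reached the 3 libraries needed for an H3K27me3 test.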

How the data were processed

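Peaks of 77 CUT&RUN libraries were taken as the authors deposited them, 1 list per library in mm10, with SEACR's terms norm and relaxed in the list names. Per the submitters' processing notes, reads passed through Trimmomatic 0.32, Bowtie2 2.3.4.1, Picard and deepTools 3.5.1. No source used here gives the SEACR version, its control, any spike-in scaling or the read depth. The signal deposited per peak, a sum of coverage, was used to rank peaks within a list, since nothing shows that lists share 1 scale. The antibody amount was 3 µg, or 1.5 µg for H2AK119Ub, per the labels' protocols.

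Gene positions came from the RefSeq table for GRCm38.p6. A peak touching the gene body or 2 kb on either side by 1 base counted as present, and the covered share is the percent of that window under peaks. Presence was compared by an exact conditional two-sided test within strata (system and time for genotype, system and genotype for CpG), for genes present in 3 or more libraries and absent from 3 or more; p-values were Benjamini-Hochberg adjusted over all genes, with a threshold of 0.05. For CpG, lists were first trimmed by total signal to the shortest list of the mark. The smallest p it can give is 0.00025 for genotype in H2AK119Ub and H3K27ac. The covered share, log2(percent + 1), was fitted with limma 3.58.1 (R 4.3.3; trend, robust) over genes covered in at least 3 libraries, each library centred on its mean. The rule that a call must hold with and without centring was chosen after seeing the data. Scripts were tested on simulated data.

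The members and lists, including the KRAB partners and cell markers, were chosen with earlier results of these data known. Genes named are the 10 with a peak in most libraries of each mark, the 5 with the smallest limma p in each direction and test, members called in a test, and members of known role. Genes given as examples of clusters or of combined marks were picked after their values were seen. In the H3K27me3 mb1-cre Xist fl/fl 0 h group, the title of replicate 5 says naive and its treatment field stimulated; the title was followed, and 24 h was tried as an alternative. Other alternatives were trimmed or deposited lists, the stronger 50% of each list, an overlap of 500 bases, a pseudocount of 0.1, links of 100 or 500 kb, a replicate block, and leaving out each library. Python 3.11.15 with pandas 2.3.3 computed coverage. No 2 libraries of a group held identical lists.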

Additional observations from a re-analysis of the deposited data

Results flagged for a closer look

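The effect of CpG differed between the 2 systems at 6 combinations of gene and mark, by the interaction term of the limma fit with Benjamini-Hochberg adjustment over all genes and with the same sign with and without centring. In H3K27me3, the TAT-Cre minus mb1-cre difference was -3.23 at Zfp658 (adjusted p = 0.0147) and -2.62 at Zfp418 (adjusted p = 0.0357) on the log2 scale, where 7.55% of all genes were called lower. Zfp418 had H3K27me3 in 8 of 8 mb1-cre libraries at 24 h and 0 of 9 at 0 h, and in 1 of 6 TAT-Cre libraries at 24 h and 3 of 6 at 0 h. Zfp658 had it in 8 of 8 and 1 of 9 mb1-cre libraries, and in 3 of 6 and 4 of 6 TAT-Cre libraries. Within mb1-cre the rise was 3.28 ± 0.57 at Zfp658 and 2.65 ± 0.59 at Zfp418 (SE), with 11.2% of all genes called higher there.

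In H3K27ac the difference was -5.07 at Zfp51, -3.67 at Zfp408, -2.56 at Zfp444 and -2.94 at Zfp146, where 4% of all genes were called lower. Zfp51 had 36.4%, 55.3% and 63.5% covered (lowest, median, highest of 6) in mb1-cre libraries at 24 h and 0% in each at 0 h, and had a peak in 1 of 6 TAT-Cre libraries at each time. Zfp408, Zfp444 and Zfp146 had a peak in 6 of 6 mb1-cre libraries at 24 h and 0 of 6 at 0 h, and in 2, 3 and 2 of 6 TAT-Cre libraries at 24 h. The systems differ in Cre protein, in the time of deletion and in list length, which cannot be told apart. In the groups of 4 or 5 libraries, no library stood apart by Dixon's criterion for the members' shares among the 20 sets of values tested, where chance flags about 1 in 20. Groups of 3 were not tested by it.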

How the results depend on the processing

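No genotype comparison called a member under any alternative run. The counts of members called for CpG moved as follows. By presence, deposited lists gave 0 for H3K27me3 (1 in trimmed lists), and reversed the direction to 11 higher for H2AK119Ub (8 lower in trimmed lists) and 12 higher for H3K27ac (1 lower). The stronger 50% of each list gave 0, 4 and 2. By covered share, the centred counts of 0, 57 and 27 became 5, 14 and 3 in trimmed lists, and 1, 29 and 32 without centring, which reversed the majority for H2AK119Ub and H3K27ac. Over all genes the centred fit called 173 of 11661, 7107 of 20691 and 3828 of 9707, and the uncentred fit 370, 7404 and 5222. The other counts given here and below are of members alone. They support no statement about the members as a list. H2AK119Ub gave 35 in the stronger 50% of each list and 35 without the 4 short 0 h lists. H3K27me3 gave 1 with replicate 5 placed at 24 h.

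Leaving out 1 library gave 1 to 2, 8 to 8 and 1 to 1 by presence for H3K27me3, H2AK119Ub and H3K27ac, 0 to 2, 52 to 61 and 20 to 28 by centred covered share, and 0 to 1, 12 to 19 and 9 to 13 with both scalings. For H3K27me3, 2 by presence came without mb1-cre WT 24 h replicate 4 or TAT-Cre Xist fl/fl 24 h replicate 2, and 2 by covered share without TAT-Cre WT 24 h replicate 1. Calls with both scalings for H3K27me3 appeared without mb1-cre Xist fl/fl 0 h replicate 5, TAT-Cre WT 0 h replicates 2 or 3, or TAT-Cre Xist fl/fl 0 h replicate 1. The clustered minus single difference in H3K27ac, -23.5 percentage points, was -16.2 in trimmed lists and -23.8 to -23.0 without 1 library; for H3K27me3 and H2AK119Ub it was -6.52 to -5.99 and -5.53 to -3.89. The causes were not tested.

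Same-numbered replicates of H3K27me3 had a correlation over 0.1 in 1 of 14 pairs across times and 4 of 14 across genotypes. Each other mark had 0 of 12 and 3 of 12. These correlations cannot tell whether same-numbered libraries share mice or a batch, which the labels do not say. The main fits left the libraries unpaired. A replicate block gave 2, 58 and 26 members by centred covered share and 1 (Zfp658), 14 and 14 with both scalings, and 0 for genotype. Read depth is unknown, so an absent peak is not an absent mark.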
